A study of Danio rerio with 15 samples.

Results

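MZdicer zebrafish embryos that had been given miR-430 were compared with uninjected wild-type embryos, to describe which transcripts were still away from their wild-type level once the microRNA was back. The comparison used 6 of the study's 15 arrays, 3 of each group, and was chosen by the labels alone. MZdicer embryos lack Dicer from the mother and from their own genome, and the labels do not name the dicer1 allele. The injected MZdicer embryos received miR-430 when they were a single cell, and their labels state no age, whereas the wild type was taken at 9 hours after fertilisation, late in gastrulation. Each array held RNA of 20 pooled embryos kept at 28 °C. The RNA was copied from an oligo(dT) primer, so a lower level of a messenger and a shorter poly(A) tail cannot be told apart. The 3 arrays each of uninjected MZdicer at 9 hours and of wild type injected with miR-430, whose age is not stated either, were used beside them. The 2 arrays of the 16-cell stage and the single array of 50% epiboly, from the TLAB wild-type strain, were used only to sort transcripts by stage. No strain is stated for the other groups. The 2 groups compared differ in genotype and in injection at once, and no array used here holds embryos with a control injection, so loss of Dicer, injection and a difference in age cannot be told apart in this comparison. Whether the arrays of a group hold embryos of different clutches is not stated, so the p-values rest on a spread between arrays that may be technical.

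Dicer cuts microRNA precursors into mature microRNAs, so embryos without it make almost none of them. The miR-430 family is transcribed in large amounts when the zebrafish genome switches on, and it speeds the deadenylation and removal of many messengers that the egg left behind. Embryos without Dicer gastrulate abnormally and keep many maternal messengers, and miR-430 given at the 1-cell stage is known to repair much of their brain morphology, although it stands in for only 1 of the microRNA families that Dicer makes.

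Levels are quantile-normalised intensities of single probe sets, differences are on the scale log2(intensity + 16), and a probe set was called at a Benjamini-Hochberg adjusted p under 0.05 in limma. Median deposited intensities of the 6 arrays ranged from 171 to 192. Within-group Pearson correlations, taken over probe sets that are not independent of each other, ranged from 0.983 to 0.991 in injected MZdicer and from 0.989 to 0.995 in wild type. Injected MZdicer replicate 1 stood apart from replicates 2 and 3. On it 92 probe sets were at least 2-fold above or below both other arrays of the group, against at most 24 on each of the other 5 arrays. Wild-type replicate 1 was scanned on a day of its own and the other 5 arrays on another day. No staining run held both groups, so staining run and group cannot be told apart. Of the 40 cell type markers of the gastrula checked, none was at 0 on all 6 arrays. Summed markers of the enveloping layer ranged from 43020 to 43950 in wild type and from 39580 to 41080 in injected MZdicer, those of the yolk syncytial layer from 14450 to 15120 and from 16840 to 17920, and those of blood and vessels from 140.2 to 180.4 and from 261.3 to 276.5. The higher blood and vessel sum came from lmo2, with means of 23.8 in wild type and 150.2 in injected MZdicer. The other markers of that sum did not rise, with 127.8 and 108.7 for gata1a and 12.4 and 9.27 for tal1. Of the 6 yolk syncytial layer markers 3 were called higher and 2 lower. In whole embryos fewer cells of a type and less RNA per cell cannot be told apart.

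The dicer1 messenger itself was measured at 499.8, 444 and 455 in wild type and at 250.5, 286 and 291 in injected MZdicer. All injected MZdicer arrays were below all wild-type arrays. The log2 difference was -0.73 ± 0.075 (SE, adjusted p = 1.78e-05). The probes may lie outside the mutated stretch, so the remaining signal does not check the labels.

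Injected MZdicer embryos remained different from wild type at many transcripts, but most of these differences were small. Of 15502 probe sets, 4853 were called (31.3%), 2533 of them higher in injected MZdicer (16.3%) and 2320 lower (15%). At least 1.5-fold apart were 868 higher (5.6%) and 565 lower (3.64%), and at least 2-fold 248 (1.6%) and 126 (0.813%). The 3 arrays of one group lay wholly above or below those of the other for 6022 probe sets (38.8%), above for 3005 (19.4%) and below for 3017 (19.5%). For 10875 probe sets (70.2%) the whole 95% confidence interval lay within 1.5-fold of wild type, here called near the wild-type level. This count depends on the pseudocount, with 8819 near at a pseudocount of 1 and 13308 at 64. The median log2 difference over all probe sets was -0.026. Higher calls made up 52.2% of all calls after quantile normalisation, 68.9% with the values as deposited and 44.2% after median centring, so the balance of both directions depends on the scaling. A block for the scan day gave 2582 higher and 2394 lower calls. Wild-type replicate 1 is the only fitted array of its day, so this block amounts to leaving it out, which gave 2580 and 2392. In the same fit uninjected MZdicer differed from wild type at 7347 probe sets (47.4%), injected MZdicer from injected wild type at 3237 (20.9%) and injected from uninjected wild type at 2179 (14.1%). The difference between injected and uninjected embryos was not the same in the 2 genotypes at 3509 (22.6%). These comparisons share arrays with the main one, so their values are set side by side only.

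To see whether transcripts altered in the mutant were at the wild-type level after injection, they were chosen on the other 6 arrays. Chosen were probe sets called and at least 1.5-fold apart between uninjected MZdicer and injected wild type. This gave 1497 that were higher in MZdicer (9.66% of all) and 970 that were lower (6.26%). The groups of this choice differ in genotype and in injection at once, so it also takes in transcripts that differ between injected and uninjected wild type. No array of this choice enters the comparison of injected MZdicer with wild type, though uninjected and injected MZdicer shared a staining run. The median log2 difference of the higher transcripts from the wild-type mean was 0.319, 0.310 and 0.431 on the injected MZdicer arrays. It was 0.909, 0.928 and 0.901 on the uninjected MZdicer arrays, but these arrays chose the transcripts, so lower values on other arrays are partly fixed by the choice and the distance between the 2 groups is no measure of a return. Of the 1497, 780 were still called higher (52.1%, against 16.3% of all probe sets), 83 were called lower (5.54%), and 634 were near the wild-type level (42.4%, against 70.2% of all). For the lower transcripts the medians were -0.232, -0.374 and -0.371 on the injected arrays, and -0.703, -0.720 and -0.708 on the uninjected MZdicer arrays, which again chose them. Of these 970, 473 were still called lower (48.8%, against 15% of all), 46 were called higher (4.74%) and 437 were near the wild-type level (45.1%). Seen from the other side, 436 probe sets were both in the higher choice and at least 1.5-fold higher in injected MZdicer than in wild type, which is 50.2% of the 868 and 29.1% of the 1497. In the lower direction 231 were shared, 40.9% of the 565 and 23.8% of the 970.

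**Figure D1:**
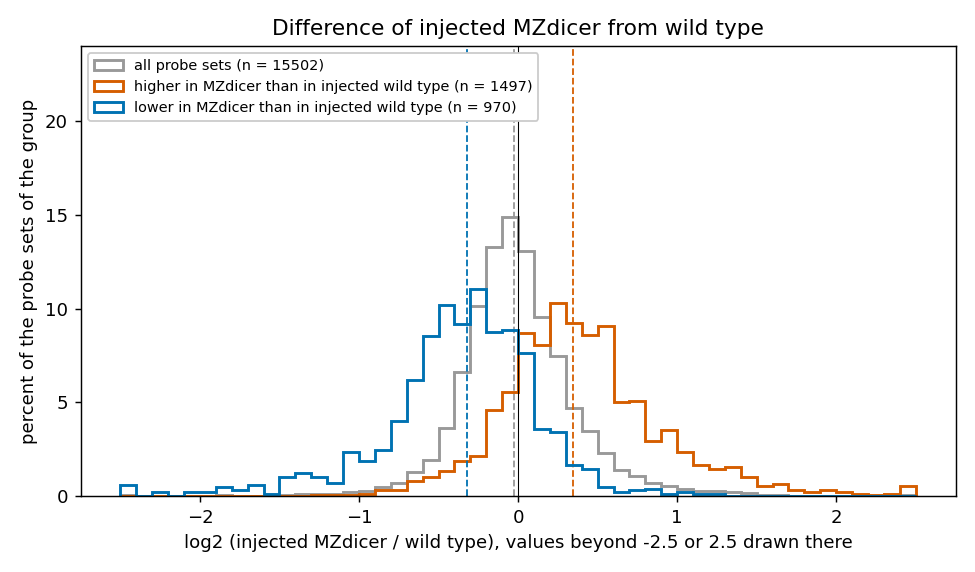
Distribution of the log2 difference of injected MZdicer from wild type in percent of probe sets per bin, for all 15502 probe sets, for the 1497 higher and for the 970 lower in MZdicer than in injected wild type. Dashed lines are the medians of -0.026, 0.347 and -0.324, and both chosen groups lie on the side of the uninjected mutant.

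The levels of single chosen genes in uninjected MZdicer are likewise a description. Among the 10 named genes with the largest excess in MZdicer over injected wild type, 5 had intervals wholly near the wild-type level after injection. The clearest was sod1, the copper-zinc superoxide dismutase that removes superoxide. It measured 306, 271 and 264 in wild type, 1855, 1884 and 1940 in uninjected MZdicer and 275, 264 and 296 in injected MZdicer. The injected arrays overlapped with the wild-type ones, with a log2 difference of -0.009 and a 95% interval of -0.17 to 0.15. Caprin2, which encodes an RNA-binding protein, measured 251, 222 and 245 in wild type, 1580, 1493 and 1605 in the uninjected mutant and 311, 240.1 and 236 after injection (interval -0.089 to 0.32). The glutathione transferase gene gstm.1 came down from 2785, 2680 and 2559 to 747, 723 and 774, against 575, 755 and 580.2 in wild type. Its interval of 0.047 to 0.43 was within the 1.5-fold range, yet lay above 0, and the deposited scaling made it a call (0.35, adjusted p = 0.00852) and without wild-type replicate 2 (0.36, adjusted p = 0.00108), and also after median centring and without dim probe sets (adjusted p of 0.0301 and 0.0432). Fam168a (interval -0.41 to 0.14) and the prostaglandin reductase gene ptgr1.1 (interval -0.14 to 0.48) were the other two. Ptgr1.1 was lower in injected wild type too, at 101, 82.2 and 72.4 against 327, 335 and 444 in uninjected wild type.

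The germ plasm gene tdrd6a, a Tudor-domain organiser of the germ granules, came close to wild type but was not wholly near it. It measured 102, 85.7 and 91.6 in wild type, 996, 1074 and 1043 in the uninjected mutant and 145, 119 and 100.1 in the injected one. The injected arrays overlapped with wild type only at replicate 3, and the difference of 0.32 ± 0.13 (SE, adjusted p = 0.0753) was called without that array (0.44, adjusted p = 0.0277) and with the values as deposited (0.37, adjusted p = 0.0408). The mitochondrial malic enzyme gene me3 stopped short of full return, at 329.6, 293 and 337 against 247, 206 and 244 in wild type and 1400, 1289 and 1344 in MZdicer. Its arrays did not overlap between injected MZdicer and wild type, and the remaining difference was 0.44 ± 0.083 (SE, adjusted p = 0.00155).

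The other 3 of the 10 stayed well above wild type. Mat1a encodes the enzyme that makes S-adenosylmethionine, the donor of methyl groups, and measured 58.9, 50.9 and 58.5 in wild type, 569, 630.2 and 506 in the uninjected mutant and 188, 373 and 439 in the injected one. All injected arrays lay between those of wild type and of uninjected MZdicer, replicate 1 nearest to wild type. The log2 difference was 2.198 ± 0.23 (SE, adjusted p = 1.78e-05). The stem cell transcription factor gene sall4 measured 198, 154 and 174 in wild type and 281, 400.2 and 356 in injected MZdicer. It overlapped with uninjected MZdicer, at 343, 399 and 421, whereas injected wild type fell to 57.4, 44.6 and 54.4. The difference from wild type was 0.91 ± 0.14 (SE, adjusted p = 0.000274), and 1.54 (adjusted p = 1.03e-06) on its brighter probe set. Wls, whose product carries Wnt proteins to the cell surface, measured 421, 454 and 435 in wild type, 1118, 857 and 958 in the uninjected mutant and 826, 885 and 932 in the injected one. Its difference was 0.99 ± 0.19 (SE, adjusted p = 0.00153) on this probe set. On its 2 brighter probe sets the difference was 0.37 (adjusted p = 0.000946) and 0.098 (adjusted p = 0.351).

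**Figure D2:**
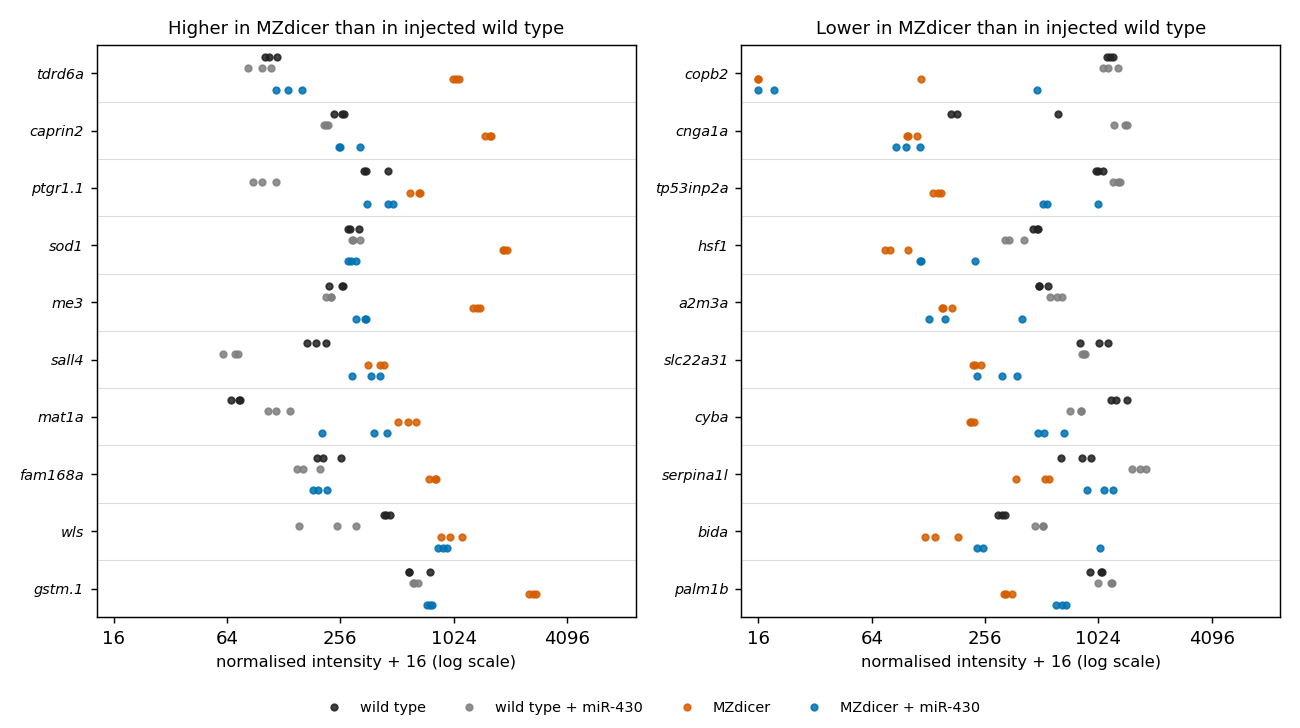
Normalised intensity plus 16 on a log axis for the 10 genes with the largest excess and the 10 with the largest deficit in uninjected MZdicer against injected wild type, 1 point per array, 4 groups of 3. In the left panel injected MZdicer lies with wild type for sod1, caprin2 and fam168a and with uninjected MZdicer for sall4 and wls, and in the right panel it lies between both for palm1b and cyba.

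Among the 10 genes with the largest deficit in MZdicer, none had an interval wholly near the wild-type level after injection, and 8 were still called lower. Cyba encodes a membrane subunit of the NADPH oxidase that makes superoxide. It measured 1256, 1439 and 1172 in wild type, 198, 199 and 208 in the uninjected mutant and 659.5, 508 and 476 in the injected one. Injected MZdicer was only part of the way up, and -1.22 ± 0.11 (SE, adjusted p = 6.64e-06) remained. Palm1b, a gene for a membrane protein of the paralemmin family, behaved alike, at 913, 1055 and 1039 in wild type, 305, 340.5 and 313 in the uninjected mutant and 669, 594 and 643 after injection (log2 -0.64 ± 0.083 SE, adjusted p = 9.64e-05). The autophagy gene tp53inp2a went from 119, 128 and 133 in MZdicer to 1008, 528 and 505 after injection, with wild type at 999, 982 and 1061. Replicate 1 was at the wild-type level and the other two near the middle, and the call (-0.64, adjusted p = 0.0207) was lost without injected replicate 2 (adjusted p = 0.0805) or 3 (adjusted p = 0.0932) or wild-type replicate 3 (adjusted p = 0.068) and with the 6 arrays alone (adjusted p = 0.084).

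Slc22a31, a solute carrier gene, stayed close to the mutant level. It measured 1013, 803 and 1130 in wild type, 209.9, 227 and 205 in the uninjected mutant and 215, 298 and 363 in the injected one, a log2 difference of -1.71 ± 0.15 (SE, adjusted p = 5.91e-06). Hsf1 encodes the transcription factor that switches on heat shock genes, and measured 465, 472 and 441 in wild type, 84.0, 64.3 and 59.1 in the uninjected mutant and 210, 102 and 99.4 in the injected one. All injected arrays were below wild type, replicate 1 least so, with a difference of -1.71 ± 0.21 (SE, adjusted p = 6.94e-05) and of -0.89 (adjusted p = 0.000965) on its other probe set. A2m3a, a gene of the alpha-2-macroglobulin protease inhibitors, measured 559, 519 and 571 in wild type and 370.2, 118 and 147 in injected MZdicer. On its other probe set the difference was -1.35 (adjusted p = 0.00395). Again replicate 1 lay between wild type and the other two arrays (log2 -1.47 ± 0.27 SE, adjusted p = 0.00136).

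The other two genes of this set were not called. The cell death gene bida measured 285, 311 and 299 in wild type and 1030, 232 and 217 in injected MZdicer. Replicate 1 was above wild type and the other two below, so that the difference of 0.32 (adjusted p = 0.596) turned to -0.39 (adjusted p = 0.0483) without it. Serpina1l, a gene for a serine protease inhibitor, measured 922, 824 and 628 in wild type, 514, 547 and 359.6 in the uninjected mutant and 877, 1086 and 1206 in the injected one. Its difference from wild type was 0.41 (adjusted p = 0.0776). It was called higher without injected replicate 1 (0.54, adjusted p = 0.0308) and with the values as deposited (0.52, adjusted p = 0.0349). It was also called higher without wild-type replicate 1 or, to the same effect, with scan day as a block (0.53, adjusted p = 0.0411 in both). Injected wild type had 1527, 1695 and 1816. Cnga1a, a gene of the cyclic nucleotide-gated channels, measured 152, 166 and 612 in wild type, of which replicate 3 stood far above the others. It measured 82.4, 83.4 and 95.5 in uninjected MZdicer and 80.8, 99.8 and 69.8 in injected MZdicer. Injected wild type was far higher, at 1220, 1433 and 1403, which enlarged the deficit by which it was chosen. Without wild-type replicate 3 its difference of -1.44 became -0.83 (adjusted p = 0.000898), and with the 6 arrays alone it was not called (adjusted p = 0.0524).

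Copb2, a subunit of the coat of Golgi transport vesicles, was the largest deficit on 1 of its 3 probe sets. This probe set measured 1118, 1208 and 1167 in wild type, 101, 0 and 0 in the uninjected mutant and 466, 3.41 and 0 in the injected one, so it was at or near 0 on 2 of the 3 arrays of each mutant group. Its difference of -4.47 ± 1.05 (SE, adjusted p = 0.00607) depends on the pseudocount and on single arrays, with a range of -6.517 to -3.22 over the alternatives and -6.065 without injected replicate 1. It was not seen on the other two probe sets (0.13, adjusted p = 0.463, and -0.11, adjusted p = 0.291).

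Maternal and zygotic transcripts were told apart on the early arrays, as probe sets at least 2-fold higher at the 16-cell stage than at 50% epiboly (declining, 3028), at least 2-fold lower (rising, 2701) or neither (9773). With 1 array at 50% epiboly this sorting has no test. The median log2 difference of transcripts that normally decline was 0.072 in injected MZdicer, against -0.005 for rising ones and -0.054 for the remainder. Between arrays the declining median had an SD of 0.0731 for 1 injected minus 1 wild-type array (n = 3 each). That is the spread of single arrays and not of a median from 3 a side, and whether the median differs from 0 was not tested. On the injected arrays the declining class stood at 0.098, 0.023 and 0.102, and on the uninjected MZdicer arrays at 0.141, 0.194 and 0.148. Of the declining class 23.9% were called higher and 10.6% lower, of the rising class 21.6% and 21.3%, and of the remainder 12.5% and 14.6%. Both other scalings kept the declining median above 0 (0.154 as deposited, 0.038 after median centring) and moved that of the rising class to either side of 0 (0.049 and -0.061).

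The stage classes cut across the transcripts chosen between uninjected MZdicer and injected wild type. Of the 1497 higher in MZdicer, 648 were declining, 230 rising and 619 neither. After injection 49.1% of the declining ones, 59.6% of the rising ones and 52.5% of the others were still called higher than wild type, with medians of 0.337, 0.418 and 0.330. The share near the wild-type level was 44% of the declining, 33.5% of the rising and 43.9% of the others. Rising transcripts among the 970 lower in MZdicer numbered 355, of which 50.1% were still called lower (median -0.325). No test of a difference between these classes was run.

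Rises and falls were ranked among called probe sets above the median intensity, with a gene symbol other than a clone name and no overlap between the 2 groups. Dimmer genes were not ranked, and some of them differed by as much as genes in the ranking, such as lmo2 described below. The 15 largest rises over wild type in this ranking ranged from 2.92-fold to 14.7-fold, dao.1 first. Dao.1 encodes D-amino acid oxidase, which degrades D-amino acids. It measured 37.1, 23.5 and 35.3 in wild type, 189, 85.9 and 122 in wild type given miR-430, 394, 361 and 354 in uninjected mutants and 386, 914 and 896 in injected ones. Injected replicates 2 and 3 were above all other arrays and replicate 1 was at the MZdicer level (log2 3.88 ± 0.30 SE, adjusted p = 1.68e-06). The AMP deaminase gene ampd2b, of purine nucleotide breakdown, measured 152, 148 and 112 in wild type, 436, 364 and 396 in wild type given miR-430, 884, 804 and 839 in uninjected mutants and 868, 780.1 and 757 in injected ones. Both mutant groups overlapped and stood above injected wild type, which stood above wild type (log2 2.42 ± 0.10 SE, adjusted p = 5.08e-08). Gamt, whose enzyme finishes creatine synthesis, measured 374, 280.2 and 290.1 in wild type and 639, 1785 and 1934 in injected MZdicer, with replicate 1 far below the other two (log2 2.01 ± 0.30 SE, adjusted p = 0.000298). Gatm, for the step before it, measured 2086, 1984 and 1590 in wild type and 4015, 4248 and 4594 in injected MZdicer. Its arrays did not overlap (log2 1.18 ± 0.11 SE, adjusted p = 7.12e-06).

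The levels of all groups set some of the other rises apart. Dhrs9, a gene of short-chain dehydrogenases that act on retinoids and steroids, measured 200.1, 155 and 169 in wild type, 343, 365 and 368 in the uninjected mutant and 546, 614 and 566 in the injected one. Injected MZdicer was thus the highest of all groups, 1.64 ± 0.10 (SE, adjusted p = 2.84e-07) above wild type, and injected wild type measured 159, 146 and 174. Cdo1, the cysteine dioxygenase gene, was likewise highest after injection, at 283, 436 and 499.6 against 138, 112 and 111 in wild type and 208, 230.2 and 227 in MZdicer (log2 1.601 ± 0.17 SE, adjusted p = 2.08e-05). The secreted selenium carrier gene selenop2 measured 216, 189.9 and 167 in wild type, 387, 383 and 407 in wild type given miR-430 and 589, 718 and 762 in injected MZdicer (log2 1.77 ± 0.10 SE, adjusted p = 2.62e-07). Pik3r3b, a regulatory subunit of phosphoinositide 3-kinase, measured 421, 482 and 454 in injected MZdicer against 723, 839.7 and 753 in MZdicer and 199, 118 and 126 in wild type (log2 1.55 ± 0.15 SE, adjusted p = 9.82e-06). Its dimmer probe set rose by only 0.31 (adjusted p = 0.0381). On the brighter one all 3 injected arrays were below all uninjected MZdicer arrays, as for mat1a and ephx5.

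The remaining rises, as log2 differences, were mst1 (1.90), a gene for a secreted hepatocyte growth factor relative, gnpda1 (1.77), for glucosamine-6-phosphate deaminase, apoa4b.1 (1.67), for an apolipoprotein, ephx5 (1.61), of the epoxide hydrolases, parp4 (1.59), of the ADP-ribosyltransferases, and the tropomyosin gene tpm4a (1.57). Snu13a, for a small nucleolar and spliceosomal RNA-binding protein, rose by 1.82 on its brighter probe set and fell by 0.72 on its other (adjusted p = 0.000386), so the gene has no settled direction. All 15 were also called higher in MZdicer than in wild type, and 8 of the 15 in injected than in uninjected wild type. Of all probe sets 22.2% and 7.32% were called so, but both comparisons reuse the wild-type arrays by which the 15 were picked, so nothing is read from these counts. The comparison with injected wild type shares the injected MZdicer arrays of that choice. Its log2 differences were 2.29 for dao.1, 0.98 for ampd2b, 1.197 for gamt, 1.75 for dhrs9 and 0.78 for selenop2.

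**Figure D3:**
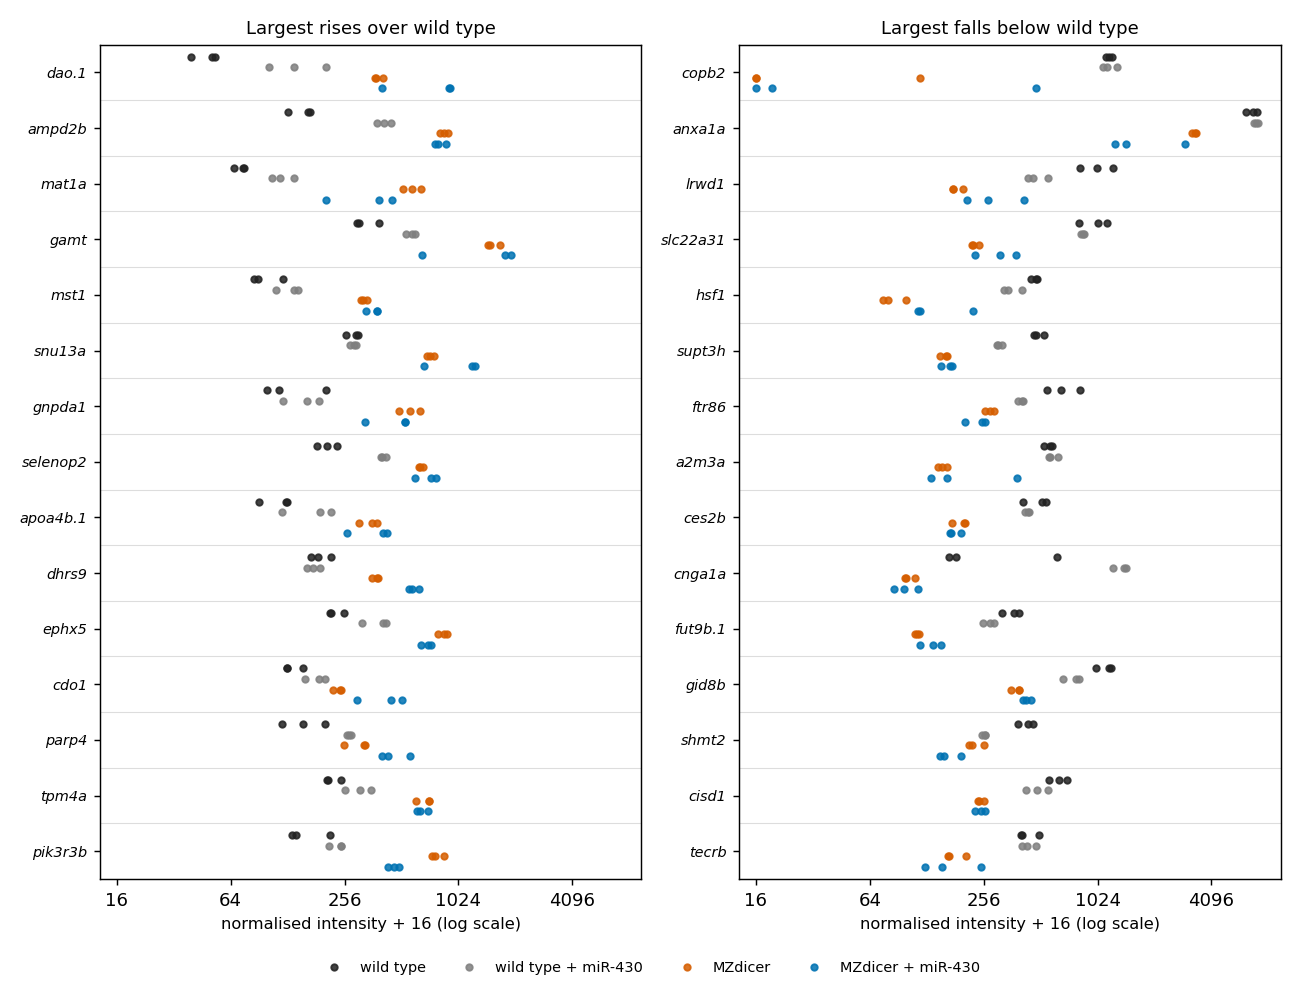
Normalised intensity plus 16 on a log axis for the 15 largest rises and 15 largest falls of injected MZdicer against wild type, 1 point per array, 4 groups of 3. Injected MZdicer lies close to uninjected MZdicer for most of these genes and apart from wild type for all, which the choice required. Its replicate 1 is a distant point for gamt, snu13a, copb2 and a2m3a, among others.

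Beside copb2, whose fold is not settled, the 15 largest falls in the same ranking ranged from 2.58-fold to 3.80-fold, the latter for anxa1a. Anxa1a, an annexin gene of the enveloping layer that wraps the embryo, measured 7128, 6238 and 6753 in wild type, 7237, 6884 and 7062 in wild type given miR-430, 3227, 3393 and 3349 in uninjected mutants and 2956, 1439 and 1257 in injected ones. The injected mutant was the lowest group, with all 3 arrays below all MZdicer arrays and replicate 1 nearest to them (log2 -1.93 ± 0.22 SE, adjusted p = 3.6e-05). Supt3h, a subunit of the SAGA transcription coactivator, measured 466, 519 and 454 in wild type, 304, 284 and 289 in wild type given miR-430, 134, 146 and 147 in uninjected mutants and 154, 136 and 159 in injected ones. Both mutant groups overlapped, and injected wild type lay between them and wild type (log2 -1.58 ± 0.083 SE, adjusted p = 1.93e-07). Gid8b, of a ubiquitin ligase complex, measured 1191, 994 and 1157 in wild type and 437, 410.4 and 398 in injected MZdicer (log2 -1.39 ± 0.090 SE, adjusted p = 5.73e-07), with -1.24 (adjusted p = 7.03e-06) on its other probe set. Lrwd1, whose product binds the origin recognition complex, measured 814, 996 and 1226 in wild type and 402, 192 and 254 in injected MZdicer, and its 2 probe sets gave -1.82 and -1.79.

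Shmt2 makes one-carbon units from serine in mitochondria. It measured 426, 371 and 454 in wild type, 234, 243 and 244 in wild type given miR-430, 207, 240 and 198 in uninjected mutants and 134, 142 and 178 in injected ones. All injected mutant arrays were below all others (log2 -1.38 ± 0.11 SE, adjusted p = 2.48e-06, and -0.70, adjusted p = 0.00244, on its dimmer probe set). They were also below all others for ftr86, of the fish-specific TRIM family, at 243, 188 and 234 against 275, 246 and 262 in MZdicer and 535, 807 and 643 in wild type (log2 -1.501 ± 0.13 SE, adjusted p = 3.93e-06). The carboxylesterase gene ces2b (-1.46), the fucosyltransferase gene fut9b.1 (-1.41), the mitochondrial iron-sulfur gene cisd1 (-1.37) and the fatty acid elongation gene tecrb (-1.37, with its 2 other probe sets at -1.14 and -0.55) completed the falls beside slc22a31, hsf1, a2m3a, cnga1a and copb2. All 15 were called lower in MZdicer than in wild type, and 7 of the 15 in injected than in uninjected wild type. The shares over all probe sets were 25.2% and 6.73%, and again nothing is read from the counts, since the same wild-type arrays picked the 15.

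Gene lists were read as counts of called members and medians beside those of all probe sets, of which 16.3% were called higher and 15% lower with a median of -0.026. A gene was represented by its brightest probe set, whereas the shares over all probe sets include dim ones and ones without a symbol. Without the dimmest 40% of probe sets 1953 were called higher and 1883 lower, against 2533 and 2320 with them. Calls were thus rarer among dim probe sets, and the shares over all are a low background for the lists. A list share near or little above them is therefore not read as a result. Over all probe sets 3175 were called higher and 1430 lower with the values as deposited, and 2307 and 2911 after median centring. Leaving out single arrays gave 1959 to 2648 higher and 1634 to 2392 lower. List counts under these settings are to be read beside those numbers. Against injected wild type the shares over all were 11.4% higher and 9.45% lower. The lists held 714 symbols, of which 535 were measured.

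**Figure D4:**
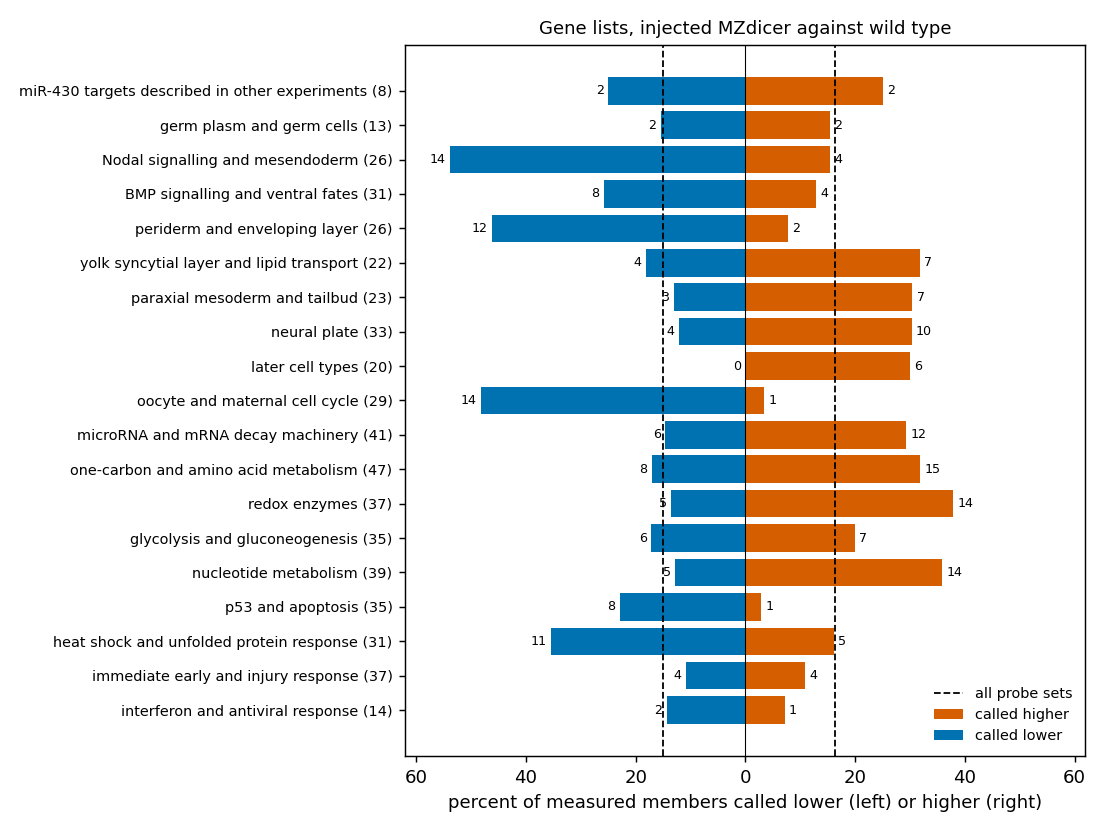
Percent of the measured members of each of 19 gene lists called lower (left) or higher (right) in injected MZdicer against wild type, with the number of members called at each bar and the number measured in parentheses. Dashed lines mark the 16.3% of all probe sets called higher and the 15% called lower, a low background because calls were rarer among dim probe sets. Lower calls outnumber higher ones most in the Nodal, periderm and cell cycle lists.

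Of 8 messengers known from other experiments as miR-430 targets, 2 remained higher, 2 were lower and 4 were not called, with a median of 0.014 (-0.001 after median centring). Cxcl12a, the chemokine that guides migrating germ cells, measured 219.8, 181 and 152 in wild type, 266, 230.1 and 266 in wild type given miR-430, 1023, 1100 and 1037 in uninjected mutants and 467, 449 and 496 in injected ones. Injected mutants were below uninjected ones, yet all injected mutant arrays were above all wild-type arrays (log2 1.29 ± 0.11 SE, adjusted p = 3.08e-06, and 0.54, adjusted p = 0.00143, on its other probe set). Nanos3, a translational regulator that germ cells need to survive, measured 278, 253 and 293 in wild type, 554, 673 and 593 in the uninjected mutant and 546, 678 and 609.7 in the injected one (log2 1.11 ± 0.094 SE, adjusted p = 3.88e-06). Both mutant groups overlapped, and injected wild type was higher still, at 789, 751 and 698. The Nodal antagonist gene lft2 went past wild type, from 1009, 1029 and 918 in MZdicer to 476, 435 and 396 after injection, with wild type at 589, 605 and 673 (log2 -0.50 ± 0.084 SE, adjusted p = 0.00069). Ndr1, a Nodal ligand gene, was the second one lower. It measured 155, 153 and 163 in wild type, 132, 124 and 133 in uninjected MZdicer and 129.8, 115 and 114 in injected MZdicer. Its difference from wild type after injection was -0.35 ± 0.083 (SE, adjusted p = 0.00624), a call lost under the deposited scaling (adjusted p = 0.0528). Uninjected MZdicer was also below wild type for ndr1 (-0.248, adjusted p = 0.026).

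The 4 not called were of different kinds. Ackr3b, the chemokine receptor that clears Cxcl12a, measured 807, 989 and 904 in wild type and 987, 782 and 903 in injected MZdicer, with an interval of -0.25 to 0.21. Tdrd7a, a germ granule gene, was likewise near the wild-type level (-0.18 to 0.27). It was not called between uninjected MZdicer and wild type either (0.057, adjusted p = 0.681). Dazl, a germ cell translation factor, measured 70.7, 75.1 and 80.2 in wild type and 86.1, 126 and 88.2 in injected MZdicer (0.33, adjusted p = 0.0679). It was called without injected replicate 1 (0.42, adjusted p = 0.0349) and with the values as deposited (0.36, adjusted p = 0.0394). The second Lefty gene, lft1, measured 702, 764 and 722 in wild type, 465, 466 and 438 in uninjected MZdicer and 782, 488 and 473 in injected MZdicer. Its replicate 1 lay above wild type and the other two below (-0.36, adjusted p = 0.0776), and it was called lower without that array (-0.59, adjusted p = 5.62e-05).

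Of 13 germ plasm and germ cell genes 2 were higher and 2 lower, about the shares over all probe sets, with a median of 0.045. With the values as deposited 6 were higher, and 1 after median centring. The germ cell helicase gene ddx4 measured 471, 427 and 514 in wild type, 207, 194 and 202 in the uninjected mutant and 346, 245 and 249 in the injected one. Injected MZdicer was part of the way up, and -0.73 ± 0.12 (SE, adjusted p = 0.000656) remained. The Piwi genes, whose products silence transposons with small RNAs, went apart, with piwil1 at 66.2, 67.1 and 71.3 in wild type and 26.8, 16.2 and 30.5 in injected MZdicer (log2 -1.07 ± 0.16 SE, adjusted p = 0.000302), and piwil2 at 67.3, 59.9 and 63.7 and 92.6, 74.6 and 95.3 (0.37, adjusted p = 0.0351). Piwil1 is dim, and its difference ranged from -1.485 to -0.582 over the alternatives. The piwil2 call was lost under median centring (adjusted p = 0.0652), with the replicate block (adjusted p = 0.0593) and with the 6 arrays alone (adjusted p = 0.0689). It was also lost without any 1 of 4 arrays (adjusted p of 0.0881, 0.12, 0.105 and 0.086 without injected replicates 1 and 3 and wild-type replicates 2 and 3).

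Nodal signalling induces mesoderm and endoderm at the margin of the gastrula, and of its 26 genes measured 14 were called lower in injected MZdicer, 4 higher and 8 not, with a median of -0.351. Near the wild-type level were 13 of the 26. The summed 6 mesendoderm markers, all of them on this list, ranged from 7136 to 7771 in wild type and from 5753 to 6139 in injected MZdicer, and the part of a change in cell numbers in these results was not tested. The endoderm determinant sox32 measured 1109, 1029 and 1176 in wild type, 688, 734 and 734 in wild type given miR-430, 509.6, 511 and 518 in uninjected mutants and 735, 608 and 545 in injected ones (log2 -0.81 ± 0.090 SE, adjusted p = 3.39e-05). The endoderm factor gene sox17, which acts after it, measured 314, 286 and 283 in wild type and 208, 219 and 188 in injected MZdicer (log2 -0.49 ± 0.086 SE, adjusted p = 0.000926). Foxh1, the partner of the Nodal-activated Smads, fell by 0.54 on its brighter probe set (adjusted p = 0.000823) and was not called on the other (-0.21, adjusted p = 0.22). The ligand ndr2 (-0.50), the signal transducer smad2 (-0.48), the organiser gene gsc (-0.43), the mesoderm gene tbxta (-0.43) and gata6 (-0.42) were lower too. Higher were eomesa (0.65), acvr1ba (0.35), dkk1b (0.32) and cxcr4a (0.26). Higher calls numbered 2 with scan day as a block. Lower calls numbered 6 with the values as deposited, 16 without injected replicate 1 and 9 without wild-type replicate 3, and the list median stayed below 0 in each of these. Against injected wild type 6 were lower and 2 higher, where 9.45% of all probe sets were called lower and 11.4% higher.

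BMP signalling patterns the ventral side, and 8 of its 31 genes were lower and 4 higher (median -0.046). Most differences were small, and 29 of the 31 were near the wild-type level. The exception in size was vent, a ventral homeobox repressor, at 204, 165 and 186 in wild type, 227, 250 and 213 in the uninjected mutant and 331, 403 and 452 in the injected one. The injected mutant was above all other groups (log2 1.02 ± 0.11 SE, adjusted p = 2.4e-05, and 1.21 on its other probe set), with injected wild type at 275, 271 and 271. The Id genes that BMP switches on were slightly lower, with log2 differences of -0.26 for id1, -0.45 for id2a and -0.30 for id3, as was the antagonist gene chrd (-0.44). Against injected wild type the balance was the other way, with 5 of the 31 higher, 3 lower and a median of 0.106. Id1 was not called there (-0.014, adjusted p = 0.844), and injected wild type was itself below uninjected wild type (-0.246, adjusted p = 0.00125).

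Genes of the periderm, the outer layer that keratins stiffen, were mostly lower where called, with 12 of 26 lower, 2 higher and a median of -0.211. The related annexin genes went apart. Anxa1c was lower (-0.64) along with anxa1a, whereas anxa1b measured 1230, 1230 and 1188 in wild type and 1922, 1964 and 1963 in injected MZdicer (log2 0.67 ± 0.055 SE, adjusted p = 2.82e-06). The tight junction genes cldn7b and cldne also differed in direction (0.47 and -0.68). The regulators grhl1 (-0.66), klf17 (-0.39) and klf2b (-0.54) were lower, and the keratin genes krt5 (-0.30) and krt18a.1 (-0.18) slightly so. Krt4, krt8, krt17 and krt97 were not called. After median centring 18 of the 26 were lower, a setting in which lower calls over all probe sets also rose, from 2320 to 2911. Against injected wild type 8 were lower and 3 higher.

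The yolk syncytial layer feeds the embryo through lipoproteins, and 7 of 22 of its genes were higher, led by apolipoproteins, and 4 lower. The list median was 0.025, and -0.046 after median centring. Compared with injected wild type, 4 were higher and 4 lower. Apoa1a measured 5004, 4668 and 4491 in wild type, 4099, 3809 and 4188 in wild type given miR-430, 6369, 6908 and 6137 in uninjected mutants and 6908, 6737 and 7198 in injected ones (log2 0.56 ± 0.054 SE, adjusted p = 1.08e-05). Both mutant groups were above both wild-type groups. Apobb.1 (0.56), apoa2 (0.74), apoa4b.1, apoa4b.2 (0.51), apoa4a (0.44) and the transferrin gene tfa (0.49) were higher as well. Apoa2 and tfa had risen in injected wild type too, by 0.70 and 0.44. Apoc1 (-0.24), apoc2 (-0.60) and the regulators hnf4a (-0.49) and gata6 were lower. Lower calls numbered 1 without injected replicate 2 or 3 and 2 with the values as deposited or without wild-type replicate 2.

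In the paraxial mesoderm, which forms the somites, 7 of 23 genes were higher and 3 lower (median 0.124), with 1 lower as deposited or without wild-type replicate 2. The Delta ligand gene dlb measured 66.7, 72.2 and 57.5 in wild type, 296, 283 and 317 in the uninjected mutant and 123, 119 and 135 in the injected one, and had come most of the way down (log2 0.80 ± 0.10 SE, adjusted p = 7.46e-05, and 0.22, adjusted p = 0.162, on its dimmer probe set). Injected wild type, at 103, 124 and 119, overlapped with injected MZdicer. The receptor gene notch3 (0.59), the retinoic acid synthesis gene aldh1a2 (0.51) and the clock gene her7 (0.43) were higher, and the clock genes her1 (-0.38) and hes6 (-0.39) lower. Against injected wild type none of the 23 was called higher and 2 were called lower, where 11.4% and 9.45% of all probe sets were called so.

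Neural plate genes were called higher in 10 of 33 cases and lower in 4, with a median of 0.036 that was -0.007 after median centring. Lower calls numbered 2 without wild-type replicate 3. Against injected wild type only 4 of the 33 were higher and 1 lower, where 11.4% and 9.45% of all probe sets were called so. The proneural gene sox11a measured 1584, 1436 and 1471 in wild type, 3707, 3640 and 3393 in the uninjected mutant and 2063, 2132 and 2082 in the injected one (log2 0.48 ± 0.050 SE, adjusted p = 1.78e-05), a return that was large but not complete on any of its 3 probe sets. Neurog1 (1.02), which starts neuron formation, and the hindbrain and midbrain patterning genes hoxb1a (0.94) and pax2a (0.89) were higher. Pax2a was not called on its other probe set (0.23, adjusted p = 0.446). The eye field gene rx3 measured 1032, 932 and 991 in wild type and 536, 628 and 624 in injected MZdicer (log2 -0.71 ± 0.10 SE, adjusted p = 0.000217). It was lower together with six3a (-0.43), otx1 (-0.27) and otx2b (-0.16), while six3b was higher (0.43).

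Genes of later cell types were higher or not called. Of 20 measured, 6 were higher and none lower (1 lower with scan day as a block, 2 without injected replicate 2), with a median of 0.173. Lmo2, a cofactor of blood and vessel progenitors, measured 18.1, 30.1 and 23.2 in wild type, 19.7, 25.6 and 18.4 in wild type given miR-430, 85.2, 84.8 and 94.7 in uninjected mutants and 178, 115 and 158 in injected ones. The injected mutant was the highest group, without overlap (log2 2.05 ± 0.15 SE, adjusted p = 1.37e-06). Lmo2 is dim, and its difference ranged from 1.278 to 2.613 over the alternatives. The blood genes gata1a (-0.22, adjusted p = 0.23) and tal1 (-0.18, adjusted p = 0.534) were not called. Drl, a zinc finger gene of the lateral mesoderm, measured 293, 402 and 274 in wild type, 376, 382 and 309 in MZdicer, 587, 663 and 656 in injected wild type and 752, 746 and 801 in injected MZdicer (log2 1.23 ± 0.12 SE, adjusted p = 1.37e-05). It was thus high in both injected groups, with 0.27 (adjusted p = 0.151) between them. The pronephros genes cdh17 (0.97) and pax8 (0.71), the heart field gene hand2 (0.70) and the endothelial gene fli1 (0.41) were higher too. Cdh17 is dim, and its difference ranged from 0.486 to 1.442 over the alternatives. Against injected wild type 5 were higher and none lower.

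**Figure D5:**
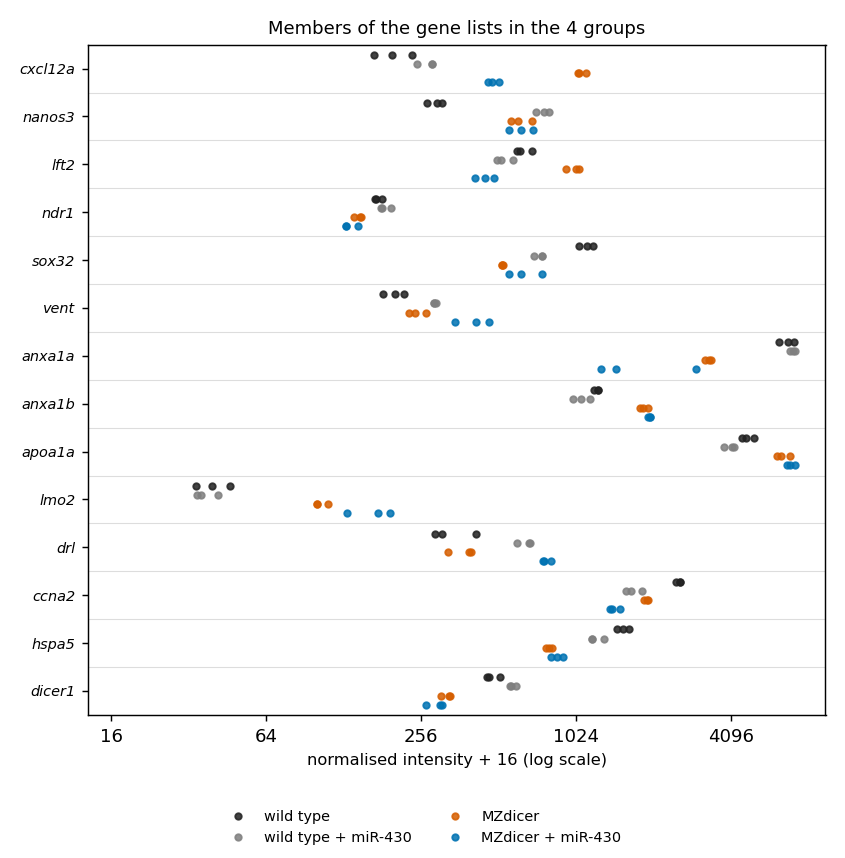
Normalised intensity plus 16 on a log axis for 14 members of the gene lists, 1 point per array, 4 groups of 3. Injected MZdicer is above every other group for lmo2 and vent, below every other group for lft2 and ccna2, and between MZdicer and wild type for cxcl12a.

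Of 29 cell cycle genes supplied by the egg, 14 were called lower in injected MZdicer, 1 higher and 14 not, with a median of -0.165. Near the wild-type level were 22 of the 29. The cyclin gene ccna2 measured 2575, 2481 and 2581 in wild type, 1658, 1576 and 1822 in wild type given miR-430, 1902, 1930 and 1853 in uninjected mutants and 1396, 1500 and 1366 in injected ones. The injected mutant was the lowest group (log2 -0.84 ± 0.056 SE, adjusted p = 8.06e-07). Cdc20, an activator of the anaphase-promoting complex, measured 1886, 1886 and 2000 in wild type, 1035, 1033 and 950.2 in the uninjected mutant and 1254, 1295 and 1233 in the injected one (log2 -0.60 ± 0.050 SE, adjusted p = 3.1e-06). The inhibitor of that complex, fbxo5, was lower (-0.45), as were ccne1 (-0.64), cdk1 (-0.39), the passenger complex gene cdca8 (-0.41) and, by less than 0.3 each, bub1ba, ccnb3, fzr1a, aurka, incenp, mad2l1, ccnb1 and plk1. The one higher was ccnb2 (0.27). Without injected replicate 3 and without wild-type replicate 3, 9 and 8 were lower. Against injected wild type 5 were lower and 2 higher.

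The machinery that makes microRNAs and degrades messengers had 12 of 41 genes higher and 6 lower, with a median of -0.021, and 0.049 with the values as deposited. Lsm6, of a ring of RNA-binding Lsm proteins, measured 1511, 1627 and 1540 in wild type and 2562, 2743 and 2562 in injected MZdicer (log2 0.74 ± 0.046 SE, adjusted p = 4.18e-07). Its ring partners lsm4 (0.46) and lsm7 (0.41) were higher too. The decapping gene dcp1a measured 304, 239 and 285 in wild type, 595, 617 and 622 in the uninjected mutant and 511, 458 and 473 in the injected one (log2 0.77 ± 0.086 SE, adjusted p = 3.11e-05). The deadenylase gene cnot7 (0.56) and the microRNA-processing genes drosha (0.41) and dgcr8 (0.30) were higher. Beside dicer1, the CCR4-NOT genes cnot10 (-0.38) and cnot3a (-0.26) and the nuclease gene xrn2 (-0.27) were lower. Lsm14aa was higher on 2 of its 3 probe sets (0.77 and 0.50) and not called on the third (-0.14, adjusted p = 0.216). Higher calls numbered 7 without injected replicate 3 and 8 without wild-type replicate 2, and lower calls 2 with the values as deposited.

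One-carbon and amino acid genes had 15 of 47 higher, 11 of them at least 1.5-fold, and 8 lower (median 0.115). Beside dao.1, mat1a, gamt and gatm the asparagine synthetase gene asns (1.32), the glutamate dehydrogenase gene glud1a (0.96) and the methyl transfer genes bhmt (0.62) and mtr (0.68) were higher. Glud1a measured 1018, 988 and 963 in wild type and 2099, 1859 and 1881 in injected MZdicer, while its paralog glud1b was lower (-0.47). The proline synthesis genes aldh18a1 (-0.85) and pycr3 (-0.72) were lower with shmt2. Against injected wild type 17 were higher and 4 lower.

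Redox enzymes had 14 of 37 higher and 5 lower, with a median of -0.026 that turned to 0.033 with the values as deposited. Lower calls numbered 3 with the values as deposited or without injected replicate 2. Prdx5, a peroxiredoxin gene whose product reduces peroxides, measured 885, 804 and 831 in wild type, 1336, 1291 and 1404 in wild type given miR-430, 1435, 1515 and 1463 in uninjected mutants and 1877, 1697 and 1716 in injected ones (log2 1.05 ± 0.057 SE, adjusted p = 2.27e-07). Prdx2 measured 770.4, 769.5 and 663 in wild type, 3359, 3516 and 3182 in the uninjected mutant and 1209, 1533 and 1477 in the injected one (log2 0.92 ± 0.084 SE, adjusted p = 7.05e-06), so much of its excess was gone and its arrays still did not overlap with wild type. Prdx3 (1.13) and the lipid peroxidase gene gpx4a (1.14) were higher as well. Gpx4a had risen in injected wild type by 0.90. Lower were gpx8 (-1.41), cyba, blvrb (-0.53), gsr (-0.49) and gclm (-0.32).

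Nucleotide genes had 14 of 39 higher and 5 lower (median 0.064). Higher were genes of purine synthesis, gart (0.88), paics (0.53), atic (0.45), adsl (0.35) and ppat (0.25), and the nucleoside diphosphate kinase genes nme2b.1 (0.69) and nme2b.2 (1.48). Nme2b.1 and nme2b.2 are near copies, so their probes may share signal. The mitochondrial member nme4 measured 174, 172 and 173 in wild type and 83.5, 77.7 and 68.5 in injected MZdicer (log2 -1.03 ± 0.10 SE, adjusted p = 9.04e-06). Prps1b (-1.09), which makes the sugar phosphate that purines are built on, and the thymidine salvage gene tk1 (-0.70) were lower. Lower calls numbered 8 after median centring.

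Of 35 glycolysis genes 7 were higher and 6 lower (median -0.093), little above the shares over all probe sets. Compared with injected wild type, 3 were higher and 8 lower. Hexokinase gene hk1 measured 753, 688 and 693 in wild type, 435, 372 and 482 in wild type given miR-430, 308, 309.8 and 317 in uninjected mutants and 323, 321 and 325 in injected ones, with both mutant groups lowest (log2 -1.10 ± 0.083 SE, adjusted p = 1.58e-06). The dimmest of its 3 probe sets was not called (-0.052, adjusted p = 0.755). The paralogs pgam1a and pgam1b, for the same glycolytic step, went apart. Pgam1b had been above wild type in MZdicer, at 337, 299 and 343 against 186, 169 and 162, and was below it after injection, at 99.9, 82.7 and 82.7 (log2 -0.85 ± 0.10 SE, adjusted p = 3.33e-05). Injected wild type was low for pgam1b too, at 101, 103 and 111, and injected MZdicer was not called against it (-0.219, adjusted p = 0.128). Pgam1a measured 344, 318 and 292 in wild type, 756, 759 and 791 in the uninjected mutant and 594, 560.5 and 507 after injection (log2 0.77 ± 0.078 SE, adjusted p = 1.42e-05), the level of injected wild type (586, 523 and 547). Fbp1b, of glucose synthesis, was higher (0.56).

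The heat shock and p53 lists had more lower calls than higher ones. Of 31 heat shock and unfolded protein response genes 11 were lower and 5 higher (median -0.060). Against injected wild type 9 were lower and 6 higher. Hspa5, the main chaperone of the endoplasmic reticulum, measured 1619, 1452 and 1541 in wild type, 1161, 1163 and 1291 in wild type given miR-430, 784, 808 and 768 in uninjected mutants and 889, 802 and 846 in injected ones, with the mutant groups overlapping (log2 -0.85 ± 0.062 SE, adjusted p = 1.25e-06). Its cochaperone gene dnajc3a (-1.65), hsp90b1 (-1.07), manf (-0.85) and the calreticulin genes calr3a (-0.45) and calr3b (-0.61) were lower with it. The dnajc3a difference ranged from -1.924 to -1.151 over the alternatives. In the opposite direction pdia4 (0.70), pdia6 (0.40), the collagen chaperone gene serpinh1b (0.44), hspd1 (0.43) and atf4a (0.63) were higher.

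Of 35 p53 and apoptosis genes 8 were lower and 1 higher (median -0.087), and between 4 and 13 were lower when single arrays were left out, 13 without injected replicate 1 and 4 without injected replicate 3. The number of lower calls thus depends on single arrays and is not read as a result. Against injected wild type 6 were lower and 1 higher. The survival genes mcl1b (-0.82) and mcl1a (-0.27) and the p53 response genes mdm2 (-0.27) and ccng1 (-0.27) were lower. Aifm1 was lower on its brighter probe set (-0.62) and not called on the other (-0.19, adjusted p = 0.282). The one higher was diabloa, which antagonises inhibitors of apoptosis, at 967, 947 and 976 in wild type and 2112, 1343 and 1289 in injected MZdicer (log2 0.67 ± 0.14 SE, adjusted p = 0.00347). Replicate 1 was far above the other two arrays, and without it the difference was 0.44 (adjusted p = 0.000619).

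Immediate early and injury genes had 4 of 37 higher and 4 lower, with a median of 0.023 that turned to -0.045 after median centring. Compared with injected wild type, 8 were higher and 4 lower. The matrix protease gene mmp9 measured 55.5, 63.7 and 65.0 in wild type, 70.7, 53.1 and 43.7 in wild type given miR-430, 124, 135 and 134 in uninjected mutants and 113, 134 and 151 in injected ones, high in both mutant groups (log2 0.93 ± 0.14 SE, adjusted p = 0.000255). Cebpa was higher (0.51) and the related genes cebpb (-0.51) and cebpd (-0.75) lower. Of 14 interferon response genes 1 was higher and 2 were lower (median 0.020, and -0.047 after median centring). Isg15, a ubiquitin-like protein gene, was lower (-0.49, adjusted p = 0.00702). B2m, the light chain of MHC class I, measured 55.6, 105 and 84.5 in wild type, 202, 217 and 242 in wild type given miR-430 and 46.5, 55.2 and 53.6 in injected MZdicer. Its call (-0.49, adjusted p = 0.0278) was lost with the 6 arrays alone (adjusted p = 0.101) and without injected replicate 1 or 3 or wild-type replicate 2 or 3 (adjusted p of 0.0747, 0.0561, 0.122 and 0.0909). The irf1b call (0.37, adjusted p = 0.016) was lost with scan day as a block (0.28, adjusted p = 0.0562), with the 6 arrays alone (adjusted p = 0.0799) and without injected replicate 2 or wild-type replicate 1 or 3 (adjusted p of 0.0553, 0.0557 and 0.0505). Irf1a was not called (-0.33, adjusted p = 0.119), but was without wild-type replicate 1 and, to the same effect, with scan day as a block (-0.47, adjusted p = 0.0282 in both).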

How the data were processed

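Zebrafish embryo RNA was measured on 15 Affymetrix arrays. The deposited values are intensities, 1 per probe set on a linear scale, while the authors' summary method, background correction and scaling are not given in sources used here. Staining run and scan day came from the deposited array information files. The deposited intensities were quantile-normalised over all 15 arrays, values below 0 were set to 0, and the log2 of intensity + 16 was taken. limma 3.58.1 in R 4.3.3 was fitted to 12 arrays (4 groups of 3, 8 residual degrees of freedom), with a mean-variance trend and Benjamini-Hochberg adjustment over 15502 probe sets, and every adjusted p in the text is from this fit or a named alternative. Of 15617 probe sets 115 controls were left out; 10795 had 1 gene symbol, 135 several and 4572 none, and 10711 matched the RefSeq table of GRCz12tu. Fold changes understate differences of dim probe sets, and the number of arrays limits the precision. Named were the 15 largest rises and falls, the 10 genes furthest apart each way between MZdicer and injected wild type, and 4 members of each list. The rises, falls and furthest genes were taken only from called probe sets above the median intensity. They also needed a gene symbol other than a clone name and arrays that did not overlap in their comparison. Further list members were named after their values were seen. The members and lists were chosen with earlier results of these data known. Tested on simulated data, the fit recovered 48 of 67 changes of 1.5-fold, 63 of 67 of 2-fold and 65 of 66 of 4-fold, with 10 false calls. The simulation had independent normal noise, no batch, no outlying array and far fewer changes than were called here. Its figures therefore check the fit and do not give its error rates on these arrays. Alternatives were 2 other scalings, pseudocounts of 1 and 64, omission of the dimmest 40% of probe sets, no trend, replicate number, scan day or staining run as a block, the 6 arrays alone, and each array left out.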

Additional observations from a re-analysis of the deposited data

Results flagged for a closer look

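The difference between injected and uninjected embryos was not the same in MZdicer as in wild type for 14 of the largest rises and falls, by the interaction term of the limma fit. Each value here is the log2 difference of injected from uninjected MZdicer minus that of injected from uninjected wild type. With no control injection and no stated age of the injected groups, it is not a measured effect of miR-430. Among the rises it was -1.511 for ampd2b, -1.548 for mat1a, -0.871 for selenop2, -1.027 for ephx5, -0.523 for tpm4a and -1.299 for pik3r3b, and 0.771 for dhrs9. Among the falls it was -2.409 for cnga1a and -0.995 for anxa1a, and 1.698 for lrwd1, 1.187 for hsf1, 0.743 for supt3h, 0.649 for fut9b.1 and 0.746 for gid8b. Of all 15502 probe sets 22.6% were called by this term. Injected MZdicer and wild-type arrays enter this term and also picked the rises and falls, so nothing is read from the count. The cnga1a value includes the wild-type replicate 3 that stood far above the others. It combines a difference of 2.348 between injected and uninjected wild type with one of -0.061 between injected and uninjected MZdicer. Dixon's test for a single outlying sample was not applied, because each group holds 3 arrays.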

How the results depend on the processing

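Of the summary values under all alternatives, 574 were counted as kept and 68 as moved. The margin for a kept value was wide. Lower calls counted as kept numbered 1634 without wild-type replicate 3 and 2911 after median centring, against 2320. Of the named genes' values 1823 kept direction and call, 15 gained a call, 23 lost one and 1 reversed. The reversed one was bida at -0.386 without injected replicate 1 (-0.386 to 0.697 over single arrays left out). The cause of each shift was not tested, except where fewer probe sets or arrays entered. With the values as deposited, 1430 probe sets were called lower, 371 of them at least 1.5-fold; 868 were lower than in injected wild type; 636 were chosen as lower in MZdicer, with 283 still lower and 263 near wild type; 187 declining ones were lower, and the class medians were 0.154 (declining) and 0.049 (rising). List medians as deposited were 0.150 (germ plasm), -0.170 (periderm), 0.062 (yolk syncytial layer), 0.232 (paraxial mesoderm), 0.101 (neural plate), -0.137 (cell cycle), 0.049 (decay), 0.033 (redox), -0.0082 (glycolysis), 0.134 (nucleotide) and -0.039 (heat shock). After median centring the medians were -0.061 (rising class), -0.278 (periderm), -0.046 (yolk syncytial layer), -0.245 (cell cycle), -0.059 (decay), -0.075 (redox), -0.147 (heat shock) and -0.045 (immediate early). A pseudocount of 64 gave 514 higher and 325 lower at 1.5-fold and 635 chosen as lower. Without the dimmest 40% there were 555 higher at 1.5-fold, 6877 near wild type, 962 chosen as higher and 450 declining ones higher, with medians of 0.110 (germ plasm), 0.220 (yolk syncytial layer), -0.201 (cell cycle) and 0.139 (nucleotide). Scan day as a block gave medians of 0.103 (germ plasm), -0.255 (periderm) and 0.137 (nucleotide). With the 6 arrays alone 1814 were higher and 1493 lower, 194 of the lower ones declining. At 2-fold, 248 were higher and 126 lower; choice at 2-fold gave 593 higher (361 still higher, 184 near wild type, median 0.489) and 239 lower (149, 47 and -0.556). Stage classes at 4-fold gave 335 declining higher, 101 lower, 295 rising higher and 325 lower. Leaving out single arrays gave medians of 0.0091 to 0.134 (germ plasm), -0.255 to -0.138 (periderm), -0.200 to -0.160 (cell cycle), -0.051 to 0.018 (decay), 0.063 to 0.137 (nucleotide) and -0.081 to -0.047 (heat shock), and 1959 to 2648 probe sets higher and 1634 to 2392 lower. With the replicate block 2406 were higher and 2186 lower. For each probe set the mean of its group was subtracted from each array. These deviations correlated at 0.022, 0.143 and -0.045 between same-numbered injected MZdicer and wild-type arrays. Such low values gave no sign of a pairing by number. Staining run as a random block gave 2217 and 1927. Values near background have no reliable order.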
